A study of Mus musculus with 34 samples.

Results

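The 10 genes described here mark neutrophils and monocytes, or are induced in activated myeloid cells: S100a8, S100a9, Csf3r, Cxcr2, Ccr2, Ly6c2, Chil3, Lyz2, Il1b and Acod1. They were chosen by gene symbol or gene identifier from the 78298 genes of the count table, and all 10 passed the filter on low counts that left 14980 genes for testing. Bulk messenger RNA sequencing was carried out on 34 livers of male C57/Bl6 mice aged 8 to 12 weeks. SIRT1intKO mice carried Sirt1 alleles with exon 4 floxed together with a Cre recombinase driven by the Villin promoter, which is active in the intestinal epithelium. WT mice were littermates with the floxed Sirt1 alleles and no Cre, so that both genotypes shared the floxed alleles and differed in the transgene. Livers were taken at 0 hours from mice without surgery, and at 6 and 24 hours after partial hepatectomy (PHx), the resection of 70% of the liver. There were 6, 6 and 4 WT livers and 6, 5 and 7 SIRT1intKO livers at 0, 6 and 24 hours, and each library came from 1 mouse.

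Neutrophils are short-lived granulocytes that leave the bone marrow and enter injured tissue within hours, and classical monocytes follow and become macrophages. S100a8 and S100a9 encode the subunits of calprotectin, the most abundant cytosolic protein of neutrophils. Csf3r encodes the receptor for granulocyte colony-stimulating factor, and Cxcr2 the receptor for the CXC chemokines that draw neutrophils out of the blood. Ccr2, the receptor for the chemokines Ccl2 and Ccl7, and Ly6c2 mark classical monocytes, while Chil3, a chitinase-like secreted lectin, is made by monocytes, neutrophils and alternatively activated macrophages. Lyz2 encodes lysozyme M and is expressed by all myeloid cells, the resident Kupffer cells of the liver included. Il1b encodes the cytokine interleukin 1 beta, and Acod1 the mitochondrial enzyme that makes itaconate, both of which are induced in stimulated macrophages and neutrophils. In whole liver RNA, a change in the number of such cells and a change in their RNA per cell cannot be told apart.

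S100a8 and S100a9 lie near each other on the same chromosome and gave the most alike profiles of all pairs of members over the 34 libraries, and Acod1 gave the largest genotype difference, so the promoters of these genes are shown. Each sequence is the RefSeq promoter window of mouse build GRCm38.p6, 250 bases before and 50 bases after the annotated start, written 5′ to 3′ on the strand of the gene. Capitals mark matches to the motifs searched. S100a8 is at chr3:90668821-90669120 on the plus strand, S100a9 at chr3:90695672-90695971 on the minus strand, and Acod1 at chr14:103046762-103047061 on the plus strand.
S100a8: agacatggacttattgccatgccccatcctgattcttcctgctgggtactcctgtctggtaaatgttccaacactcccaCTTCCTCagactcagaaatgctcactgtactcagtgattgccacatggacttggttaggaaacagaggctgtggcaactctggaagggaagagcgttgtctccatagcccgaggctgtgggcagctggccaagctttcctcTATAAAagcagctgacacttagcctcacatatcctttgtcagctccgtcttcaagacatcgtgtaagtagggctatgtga
S100a9: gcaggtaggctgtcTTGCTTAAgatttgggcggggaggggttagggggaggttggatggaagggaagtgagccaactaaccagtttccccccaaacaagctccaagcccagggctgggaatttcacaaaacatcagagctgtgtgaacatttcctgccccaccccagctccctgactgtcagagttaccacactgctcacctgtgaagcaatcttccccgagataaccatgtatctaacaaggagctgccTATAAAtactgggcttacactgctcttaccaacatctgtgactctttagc
Acod1: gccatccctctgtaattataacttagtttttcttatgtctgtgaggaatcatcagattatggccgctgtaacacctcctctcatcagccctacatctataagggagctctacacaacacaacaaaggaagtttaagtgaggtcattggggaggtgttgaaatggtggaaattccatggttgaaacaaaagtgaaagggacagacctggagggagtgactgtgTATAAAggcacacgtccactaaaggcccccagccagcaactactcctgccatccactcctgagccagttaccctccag

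The letters searched, on both strands, were TTGCNNAA for C/EBP factors, GAGGAAG for PU.1, TGANTCA for AP-1, TATAAA for the TATA box and, for NF-kB, a site of 10 bases read as GGGA, any base, TT, any base and CC. PU.1 and the C/EBP family are transcription factors of the myeloid lineage, and NF-kB and AP-1 are factors of the inflammatory response. TATAAA was present in the windows of 5 of the 10 members, S100a8, S100a9, Chil3, Il1b and Acod1, and in 13.6% of all 32851 promoter windows of the same length. In S100a8, Il1b and Acod1 it began at position -30, -31 and -28, counted from the annotated start at 1, and in S100a9 and Chil3 at 1 and -3. The PU.1 letters were found in S100a8, where they lie on the minus strand and read as CTTCCTC, in Csf3r and in the windows of Ly6c2, and in 13.6% of all windows. S100a9 alone held the C/EBP letters, which 10.8% of all windows hold. None of the members held the NF-kB or the AP-1 letters, present in 1.2% and 7.81% of all windows. None of the motifs searched overlapped another in these windows.

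Total expected counts per library lay between 14892122 and 23480492, with a median of 16807340. Levels below are CPM, counts scaled to library size with factors from the trimmed mean of M values (TMM), and they are compared between libraries of 1 gene and not between genes. Ribosomal protein genes took 1.23% to 2.14% of the counts in the 0 hour libraries, and 2 libraries lay furthest above their groups in this share. SIRT1intKO replicate 2 at 24 hours had 4.25% against a group median of 2.12%, and WT replicate 6 at 6 hours had 2.33% against 1.52%. These 2 libraries were also the highest of their groups for S100a8 and S100a9. The share also differed between groups. In SIRT1intKO livers it was 1.44% to 1.51% at 6 hours and 1.79% to 4.25% at 24 hours. The WT group medians were 1.61%, 1.52% and 1.77% at 0, 6 and 24 hours. A fit with the share as a covariate can therefore also remove part of the difference between the groups compared. Its values cannot tell the share and the group difference apart. Library names at 0 hours come from another number range than those at 6 and 24 hours, and a difference in handling between them and the later livers cannot be told apart from the effect of PHx. The comparison of 24 with 6 hours takes no group mean from them, although they enter the estimate of the spread. Groups follow the sample labels, which for WT livers at 6 and 24 hours give other group sizes than the publication states. The library labelled WT replicate 6 at 6 hours has a name that lies between those of 24 hour livers. Hepatic Sirt1 was at 8.66 to 13.6 CPM in the 6 group means, which does not check the genotype because the deletion is intestinal. All 10 hepatocyte markers examined were detected in every group, and their summed level was 38000 to 94800 CPM.

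**Figure D1:**
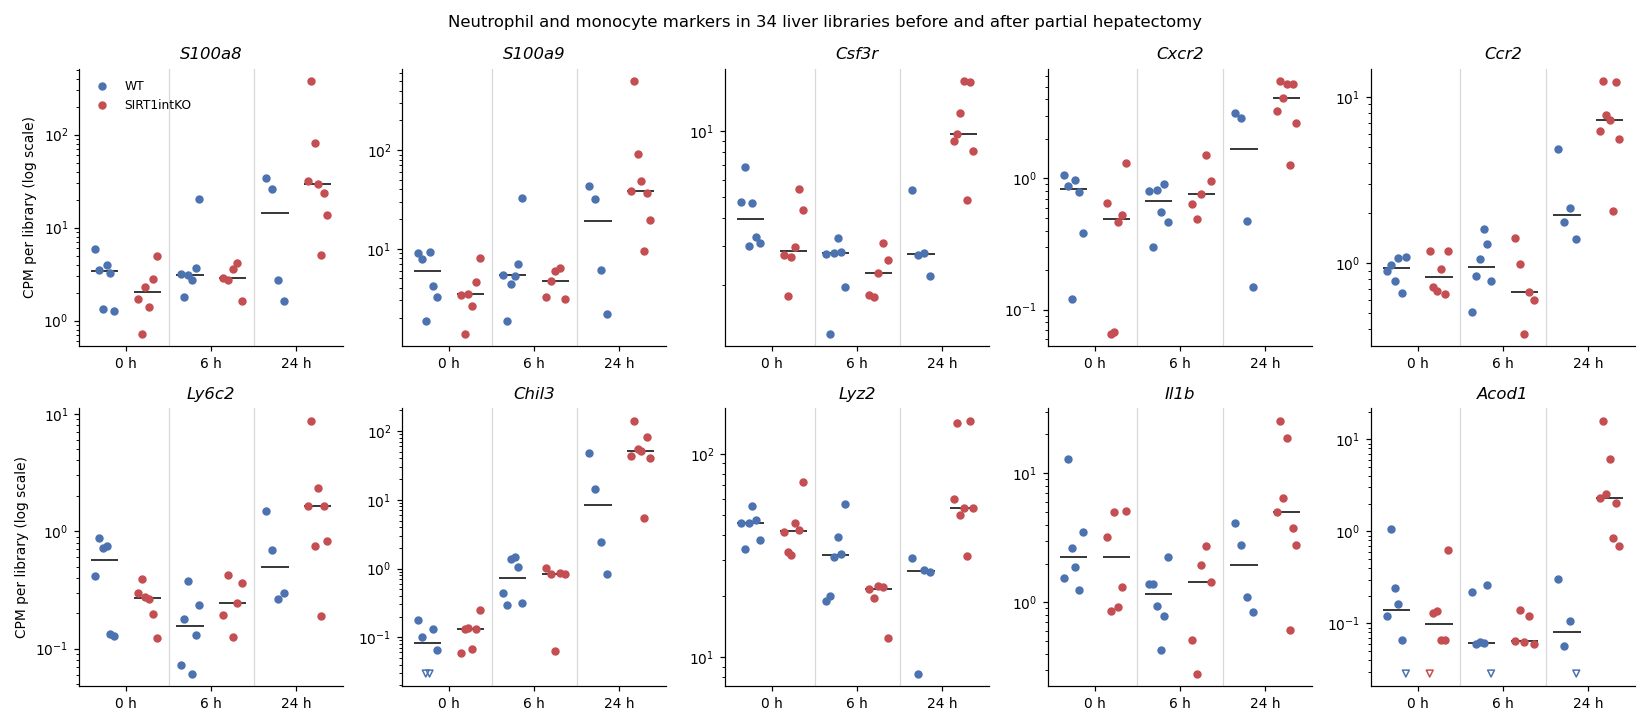
Level of each of the 10 genes in the 34 livers (CPM, log scale) by time after PHx (0, 6 and 24 hours) and genotype; each point is 1 library and each bar the group median. The SIRT1intKO livers at 24 hours lie above all 0 hour SIRT1intKO livers for S100a8, S100a9, Ccr2, Chil3 and Acod1.

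The first question was how the myeloid genes followed PHx in each genotype. At 24 hours 9 of the 10 genes were higher than at 0 hours in SIRT1intKO livers, with Lyz2 as the exception, while in WT livers S100a8, Ccr2 and Chil3 were higher. In both genotypes Chil3, nearly absent before surgery, had the largest fold change of the 10. A gene was called at an edgeR adjusted p under 0.05 and a log2 fold change beyond 1. By this rule 15.7% of all genes tested were called in WT livers, 8.32% as higher, against 3 of 10 members, and 23% were called in SIRT1intKO livers, 11.9% as higher, against 9 of 10. The members' median log2 fold change was 0.80 in WT and 3.08 in SIRT1intKO livers, and that of all genes was 0.02 and 0.04. In SIRT1intKO livers 5 members did not overlap between 24 and 0 hours, all of them higher, which held for 11% of all genes. Against 6 hours, 10 of 10 members were called higher at 24 hours in SIRT1intKO livers, where 6.7% of all genes were, and 7 did not overlap, where 3.79% of all genes did not. Acod1 is among the members in each of these SIRT1intKO counts. It passed the filter on low counts only through the SIRT1intKO livers at 24 hours, so its part in the counts is no support. In WT livers 2 of 10 were called higher against 6 hours, Ccr2 and Chil3, where 4.44% of all genes were. Without WT replicate 3 or 4 at 24 hours, 6 and 5 members were called in WT livers against 0 hours. All were higher except Lyz2, called lower without replicate 3. These counts are given without a count over all genes. Without WT replicate 1 at 24 hours 1 member was called in WT livers against 6 hours. Without the 2 libraries furthest above their groups in ribosomal protein share, 5 members were called in WT livers at 24 against 6 hours, S100a8, S100a9, Ccr2, Ly6c2 and Chil3. Of all genes 977 were called there, and 1073 in the fit of all libraries. With the share as a covariate, 5 members were called in SIRT1intKO livers at 24 against 6 hours, Csf3r, Ccr2, Chil3, Lyz2 and Acod1. The share itself differed between these groups, so the covariate can also take up part of the difference between times. Of all genes 951 were called with the covariate and 1588 without it. At 6 hours against 0 hours 1 of 10 was called in each genotype: Chil3 was higher in WT livers, where 7.17% of all genes were called higher, and Lyz2 was lower in SIRT1intKO livers, where 8.7% of all genes were called lower. Beside 2361 of all genes, 3 members were called in WT livers at 6 hours without the 2 libraries, Chil3 as higher and Ly6c2 and Il1b as lower. Without the library labelled WT replicate 6 at 6 hours alone, these were Chil3 and Il1b.

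**Figure D2:**
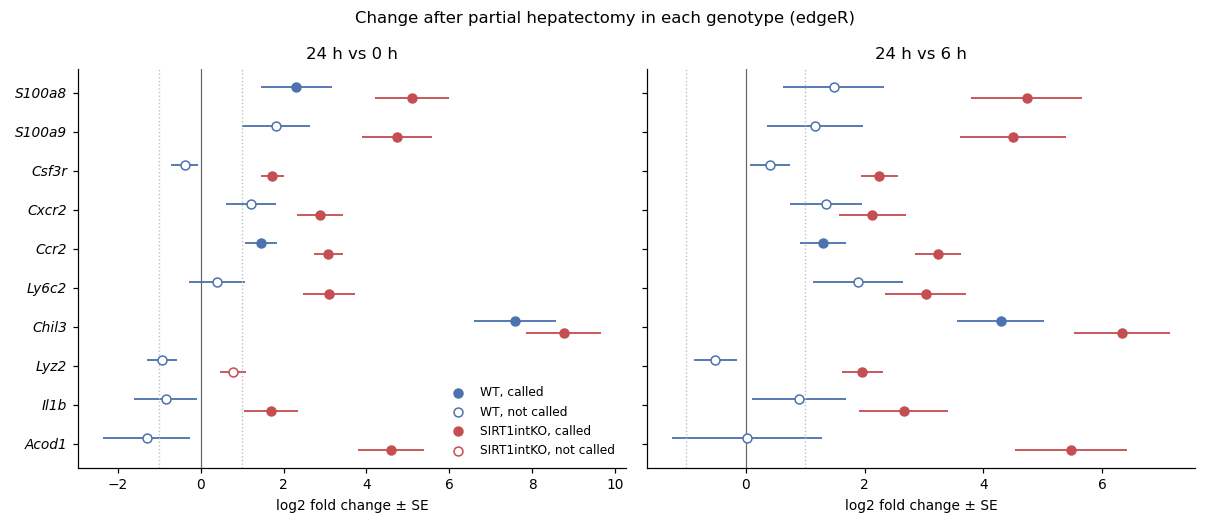
Log2 fold change (± standard error) of each gene at 24 hours against 0 hours and against 6 hours after PHx, in WT and SIRT1intKO livers; filled points were called by edgeR. For every gene the SIRT1intKO point lies to the right of the WT point.

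S100a8 was low before surgery. It lay between 1.28 and 5.84 CPM in the 6 WT livers at 0 hours, with a median of 3.38, and between 0.723 and 4.97 CPM in the 6 SIRT1intKO livers, with a median of 2.02. At 6 hours the WT livers reached 1.79 to 20.3 CPM with a median of 3.13, and the SIRT1intKO livers were at 2.89, 2.75, 3.58, 4.19 and 1.62 CPM. The WT maximum at 6 hours came from replicate 6, and the other libraries of both genotypes stayed in the 0 hour range. At 24 hours the 4 WT livers were at 33.9, 25.7, 2.72 and 1.64 CPM. They fell into a high and a low pair, and the low pair was within the 0 hour range. SIRT1intKO livers at 24 hours lay between 5.07 and 375 CPM with a median of 29.7, and all 7 were above every 0 hour liver of their genotype. The rise from 0 to 24 hours was 34.2-fold in SIRT1intKO livers (log2 fold change 5.10 ± 0.888 SE, edgeR adjusted p = 2.52e-05), and 3.72 on the log2 scale without SIRT1intKO replicate 2 at 24 hours (adjusted p = 8.73e-05). In WT livers it was 4.95-fold (2.31 ± 0.863, adjusted p = 0.0375). The WT call was lost when any of the WT replicates 2, 3, 4, 5 or 6 at 0 hours or 1 or 2 at 24 hours was left out, with log2 fold changes of 1.65 to 2.38. With replicate number as a block the WT call was lost too.

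S100a9, the calprotectin partner, repeated this pattern. Its 0 hour levels were 1.86 to 9.26 CPM in WT and 1.38 to 8.13 CPM in SIRT1intKO livers, with medians of 6.02 and 3.46. At 24 hours it was at 43.7, 32.1, 6.02 and 2.19 CPM in WT livers. In the SIRT1intKO livers it lay between 9.38 and 498 CPM with a median of 38.8, again above all 0 hour livers of the genotype. The same WT pair was high as for S100a8, and the correlation of both genes' log2 CPM over the 34 libraries, with group means subtracted, was 0.98. These points share library and depth. The log2 fold change from 0 to 24 hours was 4.74 ± 0.843 in SIRT1intKO livers (edgeR adjusted p = 3.23e-05) and 1.82 ± 0.819 in WT livers (adjusted p = 0.0842). Without SIRT1intKO replicate 2 at 24 hours the SIRT1intKO value was 3.37 (adjusted p = 0.000123), and without WT replicate 3 or 4 at 24 hours the WT value was called, at 2.14 and 2.19 (edgeR adjusted p = 0.0476 and 0.0351). Without WT replicate 1 it was 1.19 (adjusted p = 0.34). Against 6 hours both genes were higher at 24 hours in SIRT1intKO livers, S100a8 by 4.73 ± 0.938 and S100a9 by 4.5 ± 0.899 (edgeR adjusted p = 0.000446 and 0.000476), and by 3.38 and 3.15 without SIRT1intKO replicate 2 at 24 hours (adjusted p = 0.00146 and 0.00155). In WT livers that difference was 1.48 for S100a8 and 1.17 for S100a9 (edgeR adjusted p = 0.239 and 0.348). Without the 2 libraries furthest above their groups in ribosomal protein share, the WT differences were 2.46 and 2.12 (adjusted p = 0.0141 and 0.021). With the library labelled WT replicate 6 at 6 hours left out alone, they had the same size and were not called (adjusted p = 0.0544 and 0.0786), and without WT replicate 1 at 24 hours they were 0.85 and 0.57 (adjusted p = 0.616 and 0.747).

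S100a8 and S100a9 followed the ribosomal protein share most closely of the members. Over the 34 libraries, and after group means were subtracted, their log2 CPM correlated with the log2 share at 0.78 and 0.77, and at 0.62 and 0.59 without the 2 libraries of highest deviation. The other members correlated at 0.19 to 0.52. With the share as a covariate, the rise from 6 to 24 hours in SIRT1intKO livers was 1.04 for S100a8 and 1.14 for S100a9 on the log2 scale (edgeR adjusted p = 0.261 and 0.194), and the rise from 0 hours was 1.85 and 1.78 (adjusted p = 0.0121 and 0.0122).

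Csf3r, the growth factor receptor of neutrophils, was called higher at 24 hours in SIRT1intKO livers. It lay between 3 and 6.84 CPM in WT and between 1.77 and 5.44 CPM in SIRT1intKO livers at 0 hours, with medians of 3.99 and 2.85. At 6 hours it was at 1.2 to 3.25 CPM in WT livers, and at 1.8, 1.76, 2.26, 3.09 and 2.58 CPM in SIRT1intKO livers. The change from 0 to 6 hours was -0.80 in WT livers (edgeR adjusted p = 0.0352), short of the fold threshold, and -0.53 in SIRT1intKO livers (adjusted p = 0.196). At 24 hours the WT livers were at 5.41, 2.74, 2.78 and 2.19 CPM, inside the earlier WT range. The SIRT1intKO livers reached 4.83 to 16.8 CPM with a median of 9.69, and 6 of 7 were above the highest 0 hour liver. The log2 fold change from 0 to 24 hours was 1.73 ± 0.288 in SIRT1intKO livers (edgeR adjusted p = 1.44e-05) and -0.39 ± 0.331 in WT livers (adjusted p = 0.374). All 7 SIRT1intKO livers at 24 hours were above the highest 6 hour liver of the genotype, and the log2 fold change from 6 to 24 hours was 2.25 ± 0.318 (edgeR adjusted p = 9.46e-06). Of the transcript words of 31 bases of Csf3r, 23.1% occur in other genes, mostly in the gene model AC105061.2.

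Cxcr2, the chemokine receptor of neutrophils, was low in unoperated livers of both genotypes. It was at 0.12 to 1.07 CPM in WT and at 0.0657 to 1.3 CPM in SIRT1intKO livers at 0 hours. At 24 hours the WT livers were at 3.14, 2.86, 0.471 and 0.149 CPM, so that the pair high for S100a8 was high here too. The SIRT1intKO livers lay between 1.27 and 5.5 CPM with a median of 4.09, and 6 of 7 were above the highest 0 hour liver. From 0 to 24 hours the log2 fold change was 2.88 ± 0.560 in SIRT1intKO livers (edgeR adjusted p = 9.88e-05) and 1.21 ± 0.6 in WT livers (adjusted p = 0.118). Against 6 hours it was 2.13 ± 0.567 in SIRT1intKO livers (edgeR adjusted p = 0.00584) and 1.35 ± 0.609 in WT livers (adjusted p = 0.13). The SIRT1intKO call was lost with the ribosomal protein share as a covariate (1.45, edgeR adjusted p = 0.156). In WT livers Cxcr2 was called without replicate 4 at 24 hours against both times (1.59 and 1.73, edgeR adjusted p = 0.0265 and 0.0334), and without replicate 3 against 0 hours (1.53, adjusted p = 0.0477).

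Ccr2, which marks the monocytes that leave the blood towards Ccl2, had narrow ranges before 24 hours. It was at 0.66 to 1.09 CPM in WT and 0.655 to 1.18 CPM in SIRT1intKO livers at 0 hours. At 6 hours it was at 0.51 to 1.6 CPM in WT livers and at 1.41, 0.986, 0.377, 0.668 and 0.599 CPM in SIRT1intKO livers. By 24 hours it was at 4.86, 1.77, 2.15 and 1.39 CPM in WT livers. In SIRT1intKO livers it reached 2.06 to 12.4 CPM with a median of 7.21. In both genotypes every 24 hour liver was above every 0 hour liver. The log2 fold change from 0 to 24 hours was 3.08 ± 0.355 in SIRT1intKO livers (edgeR adjusted p = 6.44e-08) and 1.46 ± 0.383 in WT livers (adjusted p = 0.00403). Without WT replicate 1 at 24 hours the WT value was 0.96 (edgeR adjusted p = 0.0719). Against 6 hours the rise was 3.23 ± 0.387 in SIRT1intKO livers (edgeR adjusted p = 9.17e-07) and 1.30 ± 0.383 in WT livers (adjusted p = 0.0186). The WT rise was 0.81 without WT replicate 1 at 24 hours (edgeR adjusted p = 0.191) and 1.31 with only the groups compared in the fit (adjusted p = 0.087). It was also not called with replicate number as a block. Ccr2 shared 3.41% of its words with other genes.

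Ly6c2, the surface protein of classical monocytes, was counted few times before surgery, 54 times over the 6 WT libraries and 25 times over the 6 SIRT1intKO libraries. It lay between 0.128 and 0.868 CPM in WT and between 0.124 and 0.394 CPM in SIRT1intKO livers at 0 hours. At 24 hours the WT livers were at 1.48, 0.686, 0.262 and 0.299 CPM. The SIRT1intKO livers were at 0.188 to 8.66 CPM with a median of 1.63, and 6 of 7 were above the 0 hour range. The rise from 0 to 24 hours was 3.09 ± 0.634 on the log2 scale in SIRT1intKO livers (edgeR adjusted p = 0.000191) and 0.39 ± 0.677 in WT livers (adjusted p = 0.687). Without SIRT1intKO replicate 2 at 24 hours the SIRT1intKO value was 2.20 (edgeR adjusted p = 0.00105), and with the ribosomal protein share as a covariate 1.58 (adjusted p = 0.0629). Against 6 hours it rose by 3.03 ± 0.678 in SIRT1intKO livers (adjusted p = 0.00141) and differed by 1.89 ± 0.754 in WT livers (adjusted p = 0.0825), where the value at 6 against 0 hours was -1.5 (adjusted p = 0.0959). The SIRT1intKO rise was 2.17 without replicate 2 at 24 hours (edgeR adjusted p = 0.00544) and 1.44 with the covariate (adjusted p = 0.17). The WT difference was called without WT replicate 3 at 24 hours (2.19, edgeR adjusted p = 0.0478) and without the 2 libraries named above (1.96, adjusted p = 0.0416), and was 1.22 without WT replicate 1 at 24 hours (adjusted p = 0.384). Of its words, 23.7% occur in other genes, 21.4% in Ly6c1, an endothelial gene.

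Chil3 rose most of the members. Its 0 hour libraries held at most 0.179 CPM in WT and 0.248 CPM in SIRT1intKO livers, which is 8 and 12 counts summed over each group of 6. At 6 hours it was at 0.299 to 1.47 CPM in WT livers and at 1.03, 0.845, 0.0629, 0.85 and 0.839 CPM in SIRT1intKO livers. The WT rise at 6 hours was 3.30 on the log2 scale (edgeR adjusted p = 0.0297), and it was 3.04 to 3.08 and no longer called without WT replicate 3 or 4 at 0 or at 6 hours (adjusted p = 0.056 to 0.0649). In SIRT1intKO livers the value at 6 hours was 2.43 (adjusted p = 0.103), and 4 of 5 livers were above every 0 hour liver of the genotype. At 24 hours Chil3 was at 48.6, 14.5, 2.46 and 0.846 CPM in WT livers. In SIRT1intKO livers it reached 5.4 to 140 CPM with a median of 51.4. Every operated liver at 24 hours was above every 0 hour liver of its genotype. The log2 fold changes from 0 to 24 hours were 8.77 ± 0.907 in SIRT1intKO livers (edgeR adjusted p = 1.04e-08) and 7.59 ± 0.981 in WT livers (adjusted p = 1.53e-06), and they rest on the few counts at 0 hours. From 6 to 24 hours they were 6.34 ± 0.806 and 4.29 ± 0.736 (edgeR adjusted p = 2.11e-06 and 0.000234). Without WT replicate 1 at 24 hours the WT values were 6.13 against 0 hours and 2.84 against 6 hours (edgeR adjusted p = 2.46e-05 and 0.00745), and with the ribosomal protein share as a covariate the SIRT1intKO values were 7.74 and 5.18 (adjusted p = 1.53e-06 and 0.00029). Of the words of Chil3, 41.5% occur in other genes, 28.9% in Chil4, which was at most 0.0657 CPM in any library.

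Lyz2, the lysozyme of all myeloid cells, was lower at 6 than at 0 hours in SIRT1intKO livers. It was at 34.3 to 55.7 CPM in WT and 31.7 to 72.8 CPM in SIRT1intKO livers at 0 hours, with medians of 45.7 and 42. At 6 hours it was at 19 to 56.9 CPM in WT livers, and at 21.8, 19.6, 22.5, 22.3 and 12.5 CPM in SIRT1intKO livers, below every 0 hour liver of that genotype. The log2 fold change was -1.17 in SIRT1intKO livers (edgeR adjusted p = 0.00774), and -0.98 without SIRT1intKO replicate 6 at 0 hours. It was -0.43 in WT livers (adjusted p = 0.31). At 24 hours the WT livers were at 30.9, 8.34, 27 and 26.3 CPM, all below the 0 hour WT range, and their log2 fold change, -0.94 ± 0.368, missed the fold threshold (adjusted p = 0.0467). The SIRT1intKO livers at 24 hours were at 31.6 to 145 CPM with a median of 54.5. Their log2 fold change was 0.78 ± 0.311 against 0 hours (edgeR adjusted p = 0.0358), also short of the fold threshold, and 1.96 ± 0.347 against 6 hours (adjusted p = 0.000138), or 1.34 with the ribosomal protein share as a covariate (adjusted p = 0.0224). The WT value against 0 hours was called without WT replicate 2 at 0 hours or replicate 1 or 3 at 24 hours, at -1.01, -1.11 and -1.02 (edgeR adjusted p = 0.0424, 0.0482 and 0.0496). Lyz1, which shares 32.8% of the words of Lyz2, was at most 0.368 CPM in any library.

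Il1b and Acod1 are induced upon activation of myeloid cells. Il1b was at 1.25 to 12.8 CPM in WT and 0.854 to 5.09 CPM in SIRT1intKO livers at 0 hours, with medians of 2.26 and 2.25. At 24 hours it was at 4.12, 2.8, 1.1 and 0.846 CPM in WT livers, and at 0.61 to 25.3 CPM with a median of 5 in SIRT1intKO livers. Only 3 of the 7 SIRT1intKO livers were above the 0 hour range of their genotype. The log2 fold change from 0 to 24 hours was 1.70 ± 0.657 in SIRT1intKO livers (edgeR adjusted p = 0.0318) and -0.85 ± 0.768 in WT livers (adjusted p = 0.408). The SIRT1intKO call was lost without replicate 2, 4 or 5 at 0 hours or replicate 2 or 4 at 24 hours, with values of 1.17 to 1.53, with only the groups compared in the fit (1.69, edgeR adjusted p = 0.0604), and with the ribosomal protein share as a covariate (0.53, adjusted p = 0.572). This call was also lost with replicate number as a block. In WT livers the value at 6 against 0 hours was -1.74 (edgeR adjusted p = 0.0535). Against 6 hours the SIRT1intKO rise was 2.66 ± 0.748 (edgeR adjusted p = 0.00864), and 1.31 with the covariate (adjusted p = 0.256).

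Acod1, the itaconate enzyme, had group medians below those of SIRT1intKO livers at 24 hours in every other group. At 0 hours it was at 0 to 1.07 CPM in WT and 0 to 0.621 CPM in SIRT1intKO livers, with medians of 0.14 and 0.0989, and the highest WT liver was above the lowest SIRT1intKO liver at 24 hours. At 6 hours it was at 0 to 0.261 CPM in WT livers, and at 0.0641, 0.141, 0.0629, 0.121 and 0.0599 CPM in SIRT1intKO livers. At 24 hours the WT livers were at 0.307, 0.0571, 0.105 and 0 CPM, 8 counts in all, while the SIRT1intKO livers were at 0.688 to 15.8 CPM with a median of 2.29. All 7 lay above every SIRT1intKO liver at 0 and 6 hours and above every WT liver at 24 hours. In SIRT1intKO livers the log2 fold change was 4.59 ± 0.801 from 0 to 24 hours (edgeR adjusted p = 2.55e-05) and 5.48 ± 0.943 from 6 to 24 hours (adjusted p = 9.82e-05). These values were 3.76 and 4.67 without SIRT1intKO replicate 2 at 24 hours (edgeR adjusted p = 9.52e-05 and 0.00023), and 3.15 and 3.84 with the ribosomal protein share as a covariate (adjusted p = 0.00291 and 0.00677). The value from 0 hours was 5.65 without SIRT1intKO replicate 6 at 0 hours (adjusted p = 1.39e-05). In WT livers it was -1.31 from 0 hours (adjusted p = 0.352), with -0.09 without WT replicate 2 at 0 hours and -2.29 without WT replicate 1 at 24 hours, and 0.02 from 6 hours (adjusted p = 0.994), a value whose sign changed with the library left out.

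The second question was whether the genotypes differed at each time. Before surgery and at 6 hours no member was called between SIRT1intKO and WT livers by edgeR, as for 0% of all genes, and DESeq2 called none either. At an unadjusted p under 0.05 there were 0 members at 0 hours and 1, Lyz2, at 6 hours, as 1.07% and 6.52% of all genes. At 24 hours 4 of 10 members were called higher in SIRT1intKO livers, Csf3r, Ccr2, Lyz2 and Acod1, where 1.38% of all genes were called higher and 2.68% in either direction. All 10 members were higher on average, and their median log2 fold change was 1.80, against -0.02 over all genes, and all 10 had an unadjusted p under 0.05, as 23.4% of all genes did. Groups did not overlap for 2 members, Lyz2 and Acod1, as for 0.915% of all genes. The filter on low counts admitted Acod1 only through the SIRT1intKO livers at 24 hours, so its part in these counts is no support. The SIRT1intKO livers at 24 hours enter this comparison and those with 0 and 6 hours above.

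Acod1 had the largest log2 difference, but the WT livers at 24 hours held 8 counts in all, with 1 library at 0. Every other group held 7 to 31 counts, so Acod1 passed the filter on low counts through the SIRT1intKO livers at 24 hours. The size of its difference, and its rank among the members, rest on these few WT counts. Its calls, and its place in the counts of members, are not independent of that filter. Its group means were 4.35 CPM in SIRT1intKO and 0.117 CPM in WT livers at 24 hours. On the log2 scale this was 5.17 ± 0.995 (edgeR adjusted p = 0.00496), 4.33 without SIRT1intKO replicate 2 and 6.13 without WT replicate 1 at 24 hours (adjusted p = 0.0102 and 0.00382), and 4.05 with the ribosomal protein share as a covariate (adjusted p = 0.0181). Csf3r was 3.36-fold higher, at 11 ± 4.45 CPM (SD, n = 7) against 3.28 ± 1.45 CPM (SD, n = 4) (log2 fold change 1.75 ± 0.335, edgeR adjusted p = 0.00496). Lyz2 was 3.31-fold higher, at 76.7 ± 46.4 against 23.1 ± 10.1 CPM (1.73 ± 0.373, edgeR adjusted p = 0.0095). Ccr2 was 3-fold higher, at 7.62 ± 3.67 against 2.54 ± 1.57 CPM (1.59 ± 0.374, edgeR adjusted p = 0.0147). The calls for these receptors, lysozyme and the itaconate enzyme held when each of the 11 livers was left out in turn. They were lost when the fit held only the 24 hour groups, in which 0 of all genes were called (members' edgeR adjusted p = 0.256 to 0.44). With the ribosomal protein share as a covariate, Ccr2 missed the threshold (1.30, adjusted p = 0.0575) and the others did not.

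For the calprotectin genes the genotype difference at 24 hours did not pass. S100a8 differed by 2.33 ± 0.884 and S100a9 by 2.34 ± 0.864 on the log2 scale (edgeR adjusted p = 0.105 and 0.0958). Without SIRT1intKO replicate 2 at 24 hours these values were 0.94 and 0.95, and with the ribosomal protein share as a covariate -0.02 and 0.18. Chil3 differed by 1.84 ± 0.651, Ly6c2 by 1.73 ± 0.657, Il1b by 2.01 ± 0.777 and Cxcr2 by 1.24 ± 0.578 (edgeR adjusted p = 0.0823, 0.105, 0.111 and 0.189). Without WT replicate 1 at 24 hours, Chil3 and Ly6c2 were called at 3.29 and 2.39 (edgeR adjusted p = 0.00588 and 0.0426). Ly6c2 was at 0.84 without SIRT1intKO replicate 2 and at 0.68 with the covariate (edgeR adjusted p = 0.391 and 0.555). Without SIRT1intKO replicate 5 at 24 hours, 9 of the 10 members were called, all but Cxcr2, and 5.46% of all genes. DESeq2 called 6 members, adding S100a9 and Il1b to the 4 above, and 3.74% of all genes.

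**Figure D3:**
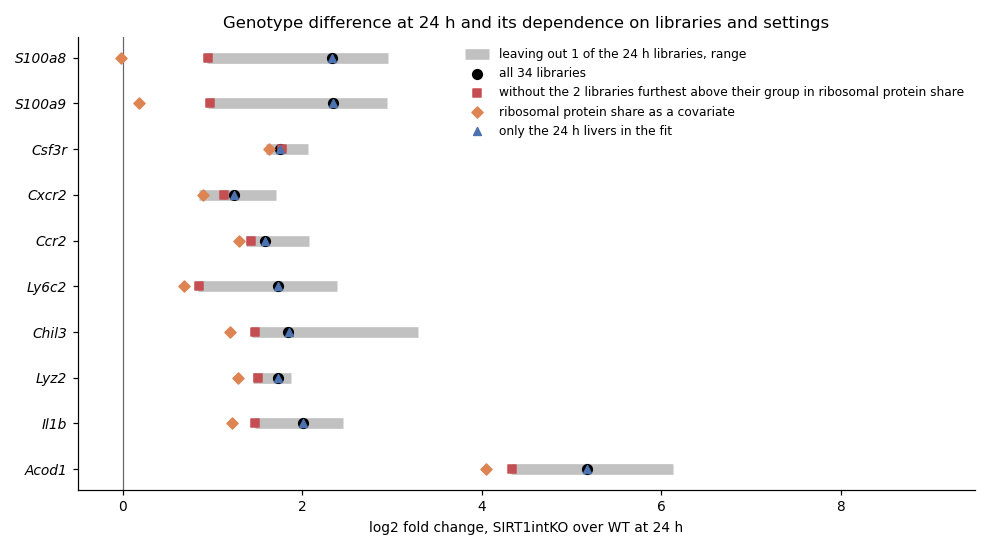
Log2 fold change of each gene between SIRT1intKO and WT livers at 24 hours after PHx: black points use all 34 libraries, grey bars span the values with 1 of the 11 livers at 24 hours left out, and coloured marks show other settings. S100a8 and S100a9 fall to 0.94 and 0.95 at the low end of their bars, while Acod1 stays furthest to the right.

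Whether the response to PHx itself differed between genotypes was tested as an interaction. From 0 to 24 hours no member was called by edgeR, where 0.00668% of all genes were, although all 10 differences were positive and 8 had an unadjusted p under 0.05, as 12.7% of all genes did. Csf3r and Acod1 came closest, and the SIRT1intKO log2 fold change exceeded the WT value by 2.12 ± 0.441 and 5.91 ± 1.33 (edgeR adjusted p = 0.064 and 0.0699). The Acod1 value was 4.68 without WT replicate 2 and 6.97 without SIRT1intKO replicate 6 at 0 hours, and 5.06 without SIRT1intKO replicate 2 and 6.86 without WT replicate 1 at 24 hours, and it was called in the last of these (adjusted p = 0.0297). DESeq2 called 3 members here, Csf3r, Lyz2 and Acod1, and 0.641% of all genes. From 6 to 24 hours 1 of 10 was called, Lyz2, whose log2 fold change was 1.96 in SIRT1intKO and -0.51 in WT livers, a difference of 2.47 ± 0.503 (edgeR adjusted p = 0.0297), where 0.167% of all genes were called higher. This call was lost without WT replicate 6 at 6 hours, WT replicate 2 at 24 hours or SIRT1intKO replicate 6 at 24 hours, with values of 2.19 to 2.28. It was also lost with only the groups compared in the fit (2.46, edgeR adjusted p = 0.15), with the ribosomal protein share as a covariate (1.89, adjusted p = 0.114) and without the 2 libraries furthest above their groups in it (2.03, adjusted p = 0.0823). With replicate number as a block 0 members were called in this interaction. Without SIRT1intKO replicate 5 at 24 hours edgeR called 4 members from 0 to 24 hours and 4 from 6 to 24 hours, beside 1.37% and 2.8% of all genes, and without WT replicate 1 at 24 hours 2 and 3, beside 0.491% and 0.838%. From 0 to 6 hours the interaction called 0 members by edgeR and by DESeq2, 0 had an unadjusted p under 0.05, as 3.05% of all genes did, and 0% of all genes were called.

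The 11 livers at 24 hours varied widely within each genotype, and the members varied together. WT replicate 1 was the highest of its group for 10 of 10 members, and WT replicate 4 the lowest for 8. In the SIRT1intKO group replicate 2 was the highest for 8 members and replicate 5 the lowest for 9. Over these 11 livers the correlation of log2 CPM, with group means subtracted, was 0.95 between Cxcr2 and Chil3, 0.91 between Ly6c2 and Il1b, and 0.88 between Il1b and Acod1. Lyz2 correlated at 0.07 with Cxcr2, 0.24 with S100a8, 0.27 with S100a9 and 0.47 with Csf3r, and its highest value was 0.73 with Ccr2. These correlations describe points that share library and depth. The WT livers also differed over all genes, measured as chi-square per gene between 2 libraries. It was 21.68 between WT replicates 3 and 4 and 110.8 between 1 and 2. Between replicates 1 or 2 and 3 or 4 it was 173 to 254.1. In the SIRT1intKO group it was 27.52 to 223.5.

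**Figure D4:**
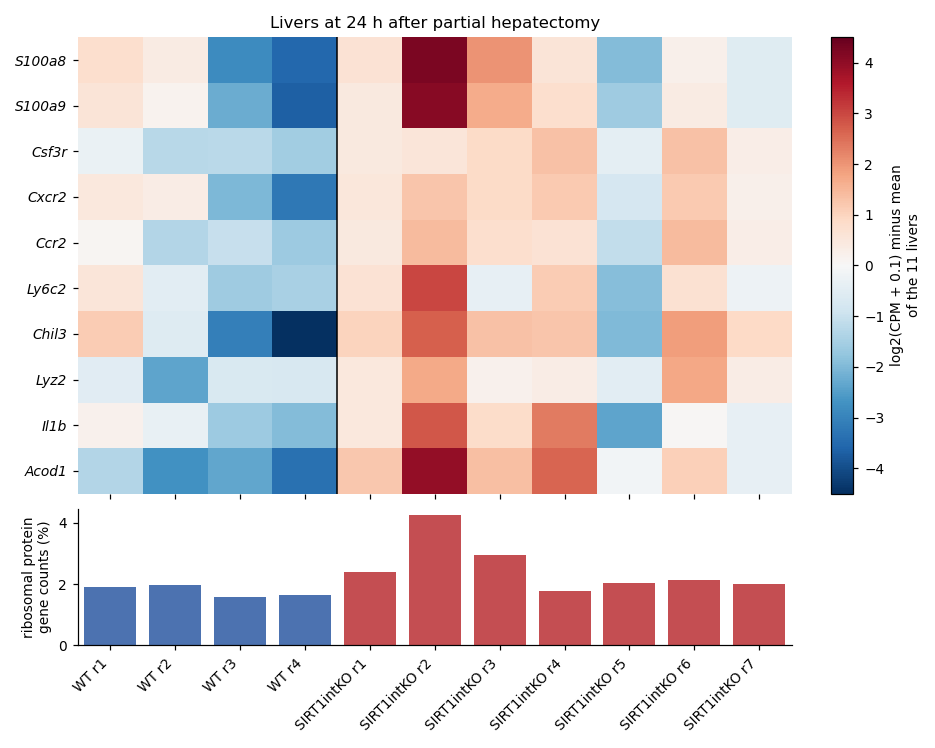
Upper panel: log2(CPM + 0.1) of each gene in each of the 11 livers at 24 hours after PHx, minus the mean of the 11 livers (colour). Lower panel: percent of counts in ribosomal protein genes in the same livers. SIRT1intKO replicate 2 is highest for 8 genes and has 4.25% of its counts in ribosomal protein genes.

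Among 12013 genes with at least 1 CPM on average, those most alike S100a8 in their deviations from the group means over 34 libraries were Rack1 (r = 0.88), Retnlg (0.88), 2410006H16Rik (0.86), Rps6 (0.86) and Fpr2 (0.86). Retnlg, a secreted product of neutrophils, and Fpr2, a receptor for formyl peptides, are myeloid genes, whereas Rack1 and Rps6 encode components of the small ribosomal subunit. For Ccr2 the most alike genes were Clec4a1 (0.79), Hcls1 (0.75), Ptafr (0.74), Serpinb6a (0.72) and Fam129a (0.72), of which Hcls1 encodes a cortactin-like protein of blood cells and Ptafr the receptor for platelet-activating factor. Without the 2 libraries furthest from the median, the values were 0.77 to 0.85 for S100a8 and 0.56 to 0.71 for Ccr2.

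The ligands of these receptors and the partners of interleukin 1 beta formed a list of 17 genes, of which 14 were tested. From 0 to 24 hours 10 of 14 were higher and 1 was lower in SIRT1intKO livers. In WT livers 5 were higher and 1 was lower, with 3 higher without WT replicate 2 at 24 hours. Of all genes, 11.9% were called higher and 11.1% lower in SIRT1intKO livers, and 8.32% and 7.4% in WT livers. The list's median log2 fold change was 2.80 and 0.22, in that order. Between genotypes at 24 hours the list's median was 0.53, and 2 of 14 were called higher, the Ccr2 ligands Ccl2 and Ccl7, and 4 without SIRT1intKO replicate 5 at 24 hours. In the fit of all libraries 1.38% of all genes were called higher between genotypes. The counts with a library left out are given without a count over all genes. Ccl2 lay between 0.328 and 1.06 CPM in SIRT1intKO livers at 0 hours and between 1.88 and 103 CPM at 24 hours, with a median of 13.9, against 0.946 to 5.84 CPM in WT livers at 24 hours. Its genotype difference at 24 hours was 3.59 on the log2 scale (edgeR adjusted p = 0.0132). Ccl7 reached 0.563 to 35.2 CPM with a median of 6.59 in SIRT1intKO livers, against 0.0996 to 1.29 CPM in WT livers, a difference of 4.27 (edgeR adjusted p = 0.011). In WT livers the log2 fold changes of Ccl2 and Ccl7 from 0 to 24 hours were 0.31 and -0.13 (adjusted p = 0.781 and 0.926), and in SIRT1intKO livers 5.51 and 5.50 (adjusted p = 1.74e-06 and 9.1e-06).

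Of the Cxcr2 ligands Cxcl2, Cxcl3, Cxcl5 and Ppbp were called higher at 24 than at 0 hours in SIRT1intKO livers, and none was called between genotypes at 24 hours. Cxcl1, the most counted of them, did not pass in either genotype, with log2 fold changes from 0 to 24 hours of -0.09 in WT and -0.28 in SIRT1intKO livers (edgeR adjusted p = 0.939 and 0.736). Cxcl2 rose in both, by 3.81 in WT and 5.48 in SIRT1intKO livers (edgeR adjusted p = 0.00404 and 9.08e-05), and its genotype difference at 24 hours was 0.59 (adjusted p = 0.729). Cxcl3 was at 0 in all 6 SIRT1intKO livers at 0 hours and at 0.0469 to 2.22 CPM at 24 hours, and in WT livers at 0 to 0.0596 CPM and then at 0 to 2.74 CPM. Cxcl5 rose by 3.17 in SIRT1intKO livers (edgeR adjusted p = 0.0125) and differed by 2.67 in WT livers (adjusted p = 0.0599). The platelet chemokine Ppbp rose by 2.44 in SIRT1intKO livers (edgeR adjusted p = 0.00294), with -0.69 in WT livers (adjusted p = 0.469). Csf3, the ligand of Csf3r, was not tested because of its low counts. It was at most 0.204 CPM at 0 hours, and at 24 hours it reached at most 2.4 CPM in WT and 3.23 CPM in SIRT1intKO livers.

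Of the genes that act with interleukin 1 beta, the antagonist Il1rn and the decoy receptor Il1r2 rose in both genotypes. From 0 to 24 hours Il1rn rose by 5.12 in WT and 6.08 in SIRT1intKO livers (edgeR adjusted p = 5.07e-05 and 2.27e-06), and Il1r2 by 4.32 and 6.12 (adjusted p = 7.93e-05 and 5.6e-07). The signalling receptor Il1r1 rose by 1.81 and 1.12 (edgeR adjusted p = 8.18e-05 and 0.0015), and its accessory chain Il1rap was lower (-1.41 and -1.79, adjusted p = 8.22e-05 and 5.96e-08). The inflammasome sensor Nlrp3 rose in SIRT1intKO livers by 1.17 (edgeR adjusted p = 0.0299), with -0.86 in WT livers (adjusted p = 0.214). Casp1, the protease that processes interleukin 1 beta, gave -0.91 in WT and -0.28 in SIRT1intKO livers, and the pore protein Gsdmd 0.14 and 0.36, none of them called (edgeR adjusted p = 0.0639, 0.472, 0.587 and 0.0693). At 24 hours none of these 7 genes was called between genotypes.

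Further lists of myeloid genes were counted in the same way. Of 31 neutrophil genes outside the members 22 were tested, and from 0 to 24 hours 19 were higher and 1 was lower in SIRT1intKO livers, against 11 and 0 in WT livers (7 higher without WT replicate 2 at 24 hours). The medians of the log2 fold changes were 2.64 and 1.74. Of all genes, 11.9% were called higher and 11.1% lower in SIRT1intKO livers, and 8.32% and 7.4% in WT livers. Wfdc21 and Hdc, the most counted genes of the list, gave 1.60 and 1.74 in SIRT1intKO livers (edgeR adjusted p = 0.0048 and 0.000188), and Cd177 and Stfa2l1, the least counted, gave 4.55 and 3.74 (adjusted p = 8.25e-05 and 0.00153). The list already summed to 314 to 394 CPM in WT and 278 to 390 CPM in SIRT1intKO livers at 0 hours. Which liver cells gave the Wfdc21 counts was not tested. Between genotypes at 24 hours 3 genes of the list were higher, Fpr1, Fpr2 and Slfn4, and the median was 0.84. Of all genes 1.38% were called higher between genotypes. Of 19 monocyte genes 18 were tested, with 13 higher and 0 lower in SIRT1intKO livers, 9 higher and 2 lower in WT livers, and medians of 1.94 and 0.98. Between genotypes at 24 hours 5 were higher, Plac8 (1.51), Ms4a4c (2.61), Ms4a6c (2.16), the coagulation factor gene F13a1 (1.86) and the Fc receptor gene Fcgr1 (1.68). The median was 0.58, and the all-gene median in this comparison was -0.02. Hp and Fn1, the most counted genes of the monocyte list, are also made by hepatocytes, and rose in both genotypes from 0 to 24 hours, Hp by 2.32 in WT and 1.47 in SIRT1intKO livers (edgeR adjusted p = 1.46e-08 and 8.58e-07) and Fn1 by 1.33 and 1.12 (adjusted p = 1.09e-06 and 5.56e-07). Of the least counted, the fractalkine receptor gene Cx3cr1 gave 1.34 in SIRT1intKO livers (edgeR adjusted p = 0.028) and 0.36 in WT livers (adjusted p = 0.652). With 1 liver left out, the genotype count of the neutrophil list at 24 hours was 0 without WT replicate 3, WT replicate 4 or SIRT1intKO replicate 2, 1 without SIRT1intKO replicate 4, and 5 without SIRT1intKO replicate 5. That of the monocyte list was 3 without WT replicate 2, 3 or 4 or SIRT1intKO replicate 2 or 6, and at most 6. The counts with a library left out are given without a count over all genes.

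Of 16 inflammatory response genes of activated myeloid cells 13 were tested. From 0 to 24 hours 9 were higher in SIRT1intKO livers, and 5 without SIRT1intKO replicate 4 at 0 hours. In WT livers 3 were higher and 1 was lower, with 1 higher without WT replicate 1 at 24 hours. The medians were 1.69 and -0.68. Of all genes, 11.9% were called higher in SIRT1intKO livers, and 8.32% higher and 7.4% lower in WT livers. Between genotypes at 24 hours 5 genes of the list were higher, with a list median of 1.91: Il1a (1.91), Il23a (2.85), the nitric oxide synthase gene Nos2 (2.82), the pattern receptor gene Clec4e (3.19) and the NF-kB inhibitor gene Tnfaip3 (2.74). Of all genes 1.38% were called higher between genotypes. The counts with a library left out are given without a count over all genes. Clec4e reached 0.516 to 24 CPM in SIRT1intKO livers at 24 hours with a median of 3.99, against 0.0524 to 2.03 CPM in WT livers. Il6 lay between 0.0938 and 1.17 CPM in SIRT1intKO livers and between 0 and 0.743 CPM in WT livers at 24 hours and was not called between genotypes. Il1rn and the cytokine signalling inhibitor Socs3, the most counted genes, were not called between genotypes (-0.07 and -0.90, edgeR adjusted p = 0.971 and 0.322). With 1 liver left out the genotype count was 1 without WT replicate 4, 2 without WT replicate 2 or SIRT1intKO replicate 2, 3 without WT replicate 3 or SIRT1intKO replicate 4, and 9 without SIRT1intKO replicate 5. In the fit of the 24 hour groups alone, 0 genes of these 4 lists were called between genotypes.

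Markers of other cells moved with these genes in part. Of 14 Kupffer cell and tissue macrophage markers, 7 were lower and 1 was higher at 24 than at 0 hours in WT livers, and 3 were lower and 2 were higher in SIRT1intKO livers. The medians were -0.92 and -0.52. Of all genes, 7.4% were called lower and 8.32% higher in WT livers, and 11.1% and 11.9% in SIRT1intKO livers. At 6 against 0 hours, where Lyz2 was lower in SIRT1intKO livers, 5 of the 14 were lower and 1 was higher in SIRT1intKO livers, with a median of -0.81, and 0 were called in WT livers, with a median of -0.14. Of all genes, 8.7% were called lower and 7.86% higher in SIRT1intKO livers at 6 hours. At 24 against 0 hours Clec4f, which is restricted to Kupffer cells, was lower in WT and SIRT1intKO livers (-1.45 and -1.83, edgeR adjusted p = 0.00165 and 5.33e-06). Between genotypes at 24 hours 13 of the 14 had a positive difference, with a median of 0.53. Of these 1 was called, the scavenger receptor gene Marco (2.28, edgeR adjusted p = 0.018), and Clec4f, at -0.08, was the 1 negative value. Of all genes 1.38% were called higher between genotypes. In the interaction of 24 with 6 hours all 14 were positive, with a median of 1.02, and 0 were called. Timd4 and Folr2, also genes of resident macrophages, differed between genotypes by 1.42 and 0.49 (edgeR adjusted p = 0.0675 and 0.464). The summed level of the 14 markers at 24 hours was 109 to 245 CPM in WT and 189 to 488 CPM in SIRT1intKO livers. Lyz2 is also a Kupffer cell gene, and the part of these cells in its genotype difference was not tested. Of 15 lymphocyte markers only 4 were tested. All 4 were called lower at 24 than at 0 hours in SIRT1intKO livers, with a median of -2.30, and 2 in WT livers, with a median of -1.84. Of all genes 11.1% and 7.4% were called lower, in that order. Cd4 fell by 5.14 and 3.63 (edgeR adjusted p = 1.2e-09 and 5.91e-06) and the B cell gene Cd79a by 2.48 and 2.35 (adjusted p = 0.000332 and 0.00703). These 2 genes were already called lower at 6 hours in both genotypes.

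Red blood cell and platelet genes were taken as a rough guide to blood content, although they did not all change in the same direction. They summed to 273 to 845 CPM in WT and 263 to 1160 CPM in SIRT1intKO livers at 24 hours, with medians of 326 and 608. Between genotypes 0 of 7 tested genes were called by edgeR, where their median was 0.58. Their median change from 0 to 24 hours was 0.64 in SIRT1intKO and -0.74 in WT livers. The hemoglobin gene Hbb-bs gave 1.00 and -0.79 (edgeR adjusted p = 0.0362 and 0.187), the first of them called, and the platelet gene Pf4 rose by 3.46 and 1.67 (adjusted p = 3.26e-06 and 0.0178). Alas2, the enzyme of heme synthesis in red cell precursors, fell by 1.58 and 1.07 (edgeR adjusted p = 1.8e-06 and 0.0029), so that 2 of the 7 were called higher and 1 lower in SIRT1intKO livers, and 1 and 1 in WT livers. Of all genes, 11.9% were called higher and 11.1% lower in SIRT1intKO livers, and 8.32% and 7.4% in WT livers. The part of blood content in the members' differences was not tested. Of 10 sinusoidal endothelium markers 1 was higher in SIRT1intKO livers at 24 hours, Ly6a (1.86, edgeR adjusted p = 0.0167), and of 10 hepatocyte markers 0 were. All 10 endothelium markers had a positive genotype difference, with a median of 0.50, beside 0.53 for the Kupffer cell list and 0.58 for the monocyte list. The part of a larger share of non-hepatocyte RNA in the members' genotype differences was not tested. The median genotype difference of the hepatocyte markers at 24 hours was -0.03, and Alb, the most counted of them, was 0.85 higher in SIRT1intKO livers (edgeR adjusted p = 0.0278), short of the fold threshold. Of 11 near relatives of the members 6 were tested, and 3 were higher in SIRT1intKO livers at 24 hours, S100a10 (1.40), Ly6a (1.86) and Il1a (1.91). Of all genes 1.38% were called higher between genotypes. Ly6c1, whose words Ly6c2 shares, gave 0.67 between genotypes (edgeR adjusted p = 0.574). Ly6g, a defining surface marker of mouse neutrophils, was at 0 in all 6 SIRT1intKO livers at 0 hours and at 0.0469 to 0.807 CPM at 24 hours, and it was not tested because of its low counts.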

How the data were processed

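Liver RNA from 34 mice was sequenced from stranded poly(A) libraries. The authors deposited Salmon expected counts per gene, made with STAR and Salmon in the nf-core pipeline against GRCm39 per the labels. Versions and the annotation are not given in the sources used here. Of the values, 4.97% were not whole, and counts were rounded to whole numbers. The table has 35 value columns, and 1 matched no sample label and was not used. Symbols in the table lack the letter x, and 1255 were restored through gene identifiers. After TMM scaling and edgeR's filterByExpr, 14980 genes were fitted over all 34 libraries with 1 mean for each of 6 groups by the quasi-likelihood test of edgeR 4.0.16 in R 4.3.3, with Benjamini-Hochberg adjustment over all genes tested and 12 contrasts. Calls needed an adjusted p below 0.05 and a change of more than 1 on the log2 scale. CPM on the log2 scale used a prior count of 2. The study's own methods used DESeq2, tried here as an alternative (version 1.42.0).

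Members and gene lists were chosen with earlier results of these data known. Named genes were all 10 members, the 2 most and 2 least counted genes of each list, all tested ligands and partners, and the 5 genes most alike S100a8 and Ccr2. Other genes were named after their values were seen. Some genes of the lists are not reported here and were left out of the counts. Replicates were separate mice. Each pair of libraries of a group differed by at least 14.66 in chi-square per gene, so none was a repeat. Alternatives were scaling, filters, the fit without other groups, a replicate block, DESeq2 and leaving out each library. After seeing the data, the ribosomal protein share (79 genes) was added as a covariate, as was a fit without the 2 libraries furthest above their groups in it. Scripts were tested on simulated counts. Precision is limited by group sizes of 4 to 7, and intervals cover the spread between mice.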

Additional observations from a re-analysis of the deposited data

Results flagged for a closer look

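Of 60 sets of 4 to 7 libraries, 1 for each gene and group, 12 held a library far from the others by Dixon's criterion. It flags about 1 in 20 independent sets of normally distributed values by chance. The sets here hold CPM on the linear scale and reuse the same libraries for correlated genes, so that rate does not apply to them. SIRT1intKO replicate 2 at 24 hours stood apart for 4 genes, with S100a8 at 375 CPM where the next liver was at 82, S100a9 at 498 against 91.8, Ly6c2 at 8.66 against 2.33 and Acod1 at 15.8 against 6.18. WT replicate 6 at 6 hours stood apart for the calprotectin genes, with S100a8 at 20.3 CPM against 3.66 and S100a9 at 32.5 against 6.99. At 0 hours, WT replicate 2 was high for both inducible genes, with Il1b at 12.8 CPM against 3.53 and Acod1 at 1.07 against 0.24. SIRT1intKO replicate 6 at 0 hours was high for Lyz2, at 72.8 CPM against 45.8, and for Acod1, at 0.621 against 0.136. On the low side, Chil3 was at 0.0629 CPM in SIRT1intKO replicate 3 at 6 hours, where the next liver was at 0.839, and Lyz2 at 12.5 CPM in SIRT1intKO replicate 5 at 6 hours, where the next was at 19.6. The change of Lyz2 from 6 to 24 hours differed between genotypes by 2.47 on the log2 scale in the interaction test of edgeR (adjusted p = 0.0297).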

How the results depend on the processing

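Of 1706 alternative values of 72 fold changes, 1692 kept their direction and 1601 also their side of the threshold, while 44 lost a call, 47 gained one and 14 changed sign. Low counts limit Acod1, Ly6c2 and Chil3 at 0 and 6 hours, and Acod1 also in WT livers at 24 hours. The genotype comparison at 24 hours is limited by 4 WT livers. The cause of each change below was not tested, other than that the filter of at least 10 counts in every library leaves only 4 members.

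Leaving out 1 library at a time, the number of members called was 2 to 6 for WT and 8 to 9 for SIRT1intKO livers at 24 against 0 hours, 1 to 3 and 10 at 24 against 6 hours, 0 to 2 and 0 to 1 at 6 against 0 hours, 4 to 9 between genotypes at 24 hours, 0 to 4 in the interactions of 24 with 0 and of 24 with 6 hours, and 0 in the others. These ranges are given without counts over all genes. In the interaction of 24 with 6 hours, it was 3 without WT replicate 1 at 6 hours, and 2 without WT replicate 2 at 6 hours or 3 at 24 hours. With at least 10 counts in every library it was 0 (WT, 6 against 0 hours), 1 (WT, 24 against 0 hours), 3 (SIRT1intKO, 24 against 0 hours), 0 (WT, 24 against 6 hours), 4 (SIRT1intKO, 24 against 6 hours), 2 (genotypes at 24 hours) and 2 (interaction of 24 with 6 hours). With every gene of at least 1 count, the interaction of 24 with 0 hours called 1. For WT livers at 6 against 0 hours it was 2 without a fold threshold, with upper-quartile scaling and with DESeq2. DESeq2 called 2 in SIRT1intKO livers at 6 against 0 hours, and 3 and 4 in the interactions of 24 with 0 and with 6 hours. With only the groups compared in the fit it was 1 for WT livers at 24 against 6 hours, 0 between genotypes at 24 hours and 0 in the interaction of 24 with 6 hours. Replicate numbers did not pair the libraries: of 76 same-number pairs 6 had a correlation of deviations above 0.1, and the median was -0.004. The replicate block gave 1 for WT livers at 24 against 6 hours, 0 in the interaction of 24 with 6 hours, 8 in SIRT1intKO livers at 24 against 0 hours, 2 in WT livers at 24 against 0 hours and 4 between genotypes at 24 hours. With the ribosomal protein share as a covariate SIRT1intKO livers at 24 against 6 hours gave 5 and the interaction of 24 with 6 hours 0. Without the 2 libraries furthest above their groups in that share, WT livers gave 3 at 6 against 0 hours and 5 at 24 against 6 hours, and the interaction of 24 with 6 hours gave 0.

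The sign changed for Ly6c2 in WT livers at 24 against 0 hours (-0.29 without WT replicate 1 at 24 hours, with 0.67 as the highest value leaving out 1 library), for Il1b in the same comparison (0.02 without WT replicate 2 at 0 hours, with -1.32 as the lowest), and for Acod1 in WT livers at 24 against 6 hours (-0.01 with upper-quartile scaling, -0.21 with the replicate block, -0.30 with the covariate, -0.20 without the 2 libraries named above, and -0.94 to 0.47 leaving out 1 library, with -0.08, -0.07, -0.08 and -0.21 without WT replicates 2, 3, 4 and 6 at 6 hours). With the covariate it also changed for S100a8 between genotypes at 24 hours (-0.02) and in the interaction of 24 with 6 hours (-0.06), and for Ly6c2 in that interaction (-0.16).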

Other observations

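Of 22 neutrophil genes tested, 19 had a positive genotype difference at 24 hours. A few granule protein genes, singled out after their values were seen, had lower levels in SIRT1intKO livers, and those tested missed the threshold. Ngp was at 0.367 to 10.3 CPM with a median of 5.05 in the 4 WT livers and at 0.0469 to 4.92 CPM with a median of 0.425 in the 7 SIRT1intKO livers, a log2 difference of -2.21 (edgeR adjusted p = 0.0742). Prtn3 differed by -2.14 (adjusted p = 0.0551). Ltf, not tested because of its low counts, was at 0.209 to 2.4 CPM in WT and at 0 to 0.181 CPM in SIRT1intKO livers at 24 hours. Camp was at 0.0524 to 0.861 CPM in WT livers and at 0 in 5 of the 7 SIRT1intKO livers. Mmp9 and Retnlg differed between genotypes at 24 hours by 0.54 and 0.63 (edgeR adjusted p = 0.586 and 0.601). From 0 to 24 hours they rose by 1.86 and 3.33 in WT mice (edgeR adjusted p = 0.0134 and 0.000941) and by 2.25 and 4.19 in SIRT1intKO livers (adjusted p = 0.000764 and 2.03e-05).

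Wfdc21 dominated the summed level of the neutrophil list, with 2400 CPM at most in WT livers at 6 hours and 2810 CPM at most in SIRT1intKO livers at 24 hours, against medians of 445 and 380 CPM. The summed level of this list therefore does not stand for neutrophils. Cebpe, a transcription factor of granulocyte maturation, was the 1 gene of that list called lower in SIRT1intKO livers from 0 to 24 hours, by -2.35 (edgeR adjusted p = 0.00017), with -1.31 in WT livers (adjusted p = 0.0639).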
